A study of Mus musculus with 12 samples.

Results

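The subunits of the oxidative phosphorylation chain were taken as the mouse genes whose symbol, found through the accession of an array probe, names a subunit of complex I (Ndufa, Ndufb, Ndufc, Ndufs and Ndufv genes), complex II (Sdha to Sdhd), complex III (Uqcr genes), complex IV (Cox5 to Cox8 genes) or the ATP synthase, complex V (Atp5 genes). The rule found 80 genes with 100 probes, and all 80 were among the 20875 genes tested: 36 of complex I, 4 of complex II, 8 of complex III, 15 of complex IV and 17 of complex V. Of these, 3 are isoforms made mainly in heart and skeletal muscle (Cox6a2, Cox7a1 and Cox8b), 3 are testis isoforms (Cox6b2, Cox7b2 and Cox8c), and the other 74 are called ubiquitous here. Total RNA was read on 12 one-colour Agilent arrays in 3 groups of 4: mouse embryonic stem cells (mESC), and cells sampled at day 9 and at day 14 of differentiation towards cardiomyocytes. According to the labels the cells were seeded in plates whose wells carried crosslinked elastin-like polypeptide (ELP), an elastin-derived protein polymer, first in a medium lacking LIF, the factor that holds mouse stem cells undifferentiated, and then in GMEM with knockout serum replacement. That text and the cell type "embryonic stem cells" are attached to all 12 samples, the mESC ones included, so the labels do not say how the mESC samples themselves were grown. They also do not say whether replicates came from separate cultures, and the p-values therefore cover the scatter among arrays, which may be partly technical.

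Complexes I to IV pass electrons from NADH and succinate to oxygen, all but complex II pumping protons across the inner mitochondrial membrane as they do so, and complex V uses the return of those protons to make ATP. The heart depends on this pathway for most of its energy, and its mitochondria carry muscle versions of a few complex IV subunits in place of the versions found in other tissues. The genes of this set lie in the nucleus; the subunits encoded by mitochondrial DNA are not among them.

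Values are log2 signal relative to the 75th percentile of the same array, so that 0 is a spot at that percentile. That percentile lay between 345.9 and 507.7 signal units over the 12 arrays, no spot was saturated, and 78 of the 80 subunit genes were well above background on all 12 arrays. Each group filled a slide and a scan of its own; the effect of slide cannot be told apart from that of group. The summed signal of 8 stem cell markers was 615 to 662 times the percentile in mESC, 17.2 to 25.6 times at day 9 and 13.9 to 14.9 times at day 14, and that of 14 cardiomyocyte markers was 5.89 to 6.61 times the percentile in mESC, 227 to 448 times at day 9 and 234 to 313 times at day 14. Markers of fibroblasts (2.5 to 2.63, 236 to 417 and 535 to 590), liver and visceral endoderm (0.228 to 0.276, 38.5 to 65.1 and 197 to 214) and macrophages (1.49 to 1.75, 0.411 to 0.527 and 18.6 to 23.1) also differed between mESC, day 9 and day 14. In such bulk samples fewer cells of a type and less RNA per cell cannot be told apart, and the part that these cell types had in the results below was not tested. A gene is said to have risen or fallen where limma gave a Benjamini-Hochberg adjusted p under 0.05 with a log2 change of at least 1, and the wider count at the adjusted p alone is given beside it.

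Few of the subunit genes passed the fold threshold, although 46.9% of all genes tested did so between day 14 and mESC. At day 14 against mESC 2 of the 80 rose and 7 fell, while 22.8% of all genes tested rose and 24.1% fell. The genes that rose were the muscle isoforms Cox8b and Cox6a2, and those that fell were Cox7a1, the 3 testis isoforms, Cox5a, Uqcrc1 and Uqcrb. At day 9 against mESC 1 rose (Cox8b) and 8 fell, where 20.0% of all genes rose and 21.0% fell, and the 8 were the 7 above together with Uqcr10. At day 14 against day 9 the 2 that rose were again Cox8b and Cox6a2 and none fell, by limma's test, where 10.2% of all genes rose and 3.61% fell; 15 subunit genes were lower at an unadjusted p under 0.05. The comparisons share their arrays, so they are not independent of each other.

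At the adjusted p alone, 8 subunit genes were higher and 54 lower at day 14 against mESC, where the same rule took 36.8% of all genes upward and 48.3% downward. At day 9 against mESC 6 were higher and 52 lower, beside 36.3% and 47.1% of all genes. Between the days 16 were higher and 14 lower at day 14 than at day 9, beside 25.4% and 37.9% of all genes. Against mESC the median change of the 80 genes was −0.31 on both days, and at day 14 relative to day 9 it was −0.02. That of all genes tested was −0.19 at day 14 and −0.16 at day 9 relative to mESC, and −0.09 from one day to the next.

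The direction of that small common shift depended on how arrays were put on one scale. With quantile normalization the median of the 80 genes was 0.12 at day 14 and 0.05 at day 9 against mESC, and 40 genes were then higher and 23 lower at day 14 at the adjusted p alone. With scaling to the median of each array it was −0.54 at day 14, and with the normexp background correction −0.42. The median of all genes at day 14 itself moved to −0.15, −0.42 and 0.10 in these 3 settings. The normexp setting started from the median signal and median background of each spot. It added an offset of 50 signal units, which makes the changes of dim genes smaller. Complex IV was the only complex whose median stayed below 0 at both days against mESC under each of 5 scalings (−0.60 at day 14 in the 75th percentile scaling and −0.16 with quantile normalization), whereas the medians of complexes I, II, III and V were above 0 with quantile normalization at both days.

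**Figure D1:**
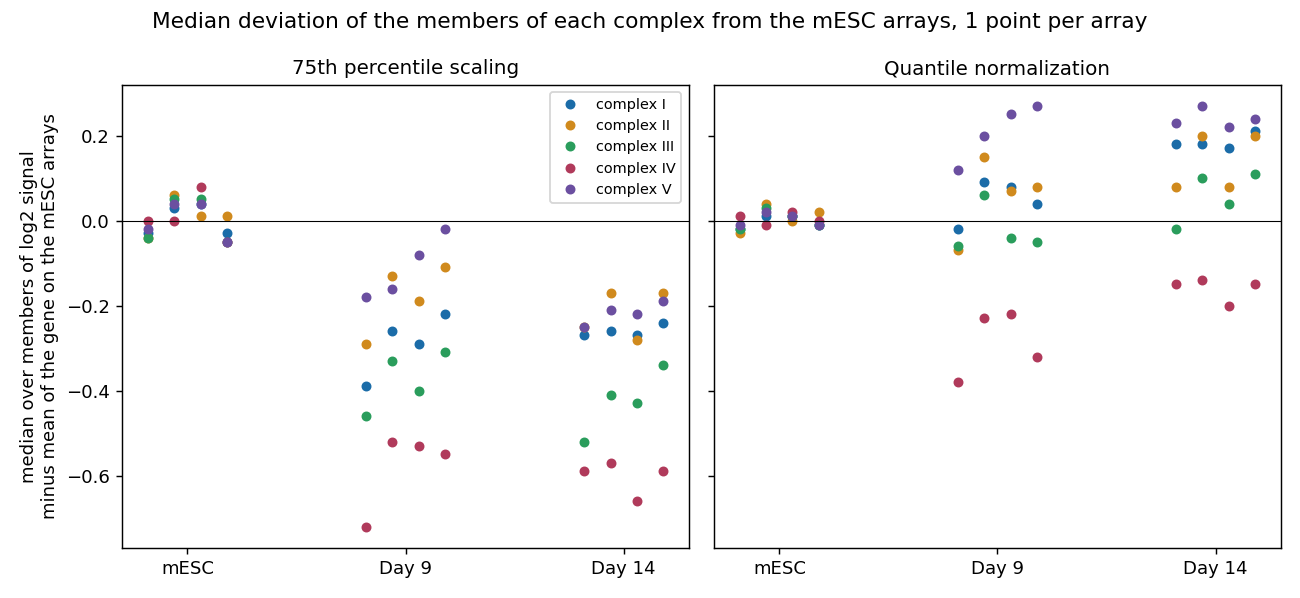
For each array, the median over the members of a complex of the log2 signal minus the gene's mean on the mESC arrays, with the 75th percentile scaling on the left and quantile normalization on the right. Complex IV lies below 0 on every day 9 and day 14 array in both panels, while complexes I and V are below 0 on the left and complex V is above 0 on the right.

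The muscle isoforms Cox8b and Cox6a2 had the largest upward changes of all 80 genes at day 14 against mESC, while the third, Cox7a1, fell. Cox8b, the muscle form of the small membrane subunit 8 in rodents, read −4.81, −7.23, −4.65 and −5.76 on the mESC arrays, −3.22, −2.30, −2.21 and −2.50 at day 9, and 0.33, 1.06, 0.93 and 1.44 at day 14. The 3 groups did not overlap and every day 14 array lay above every day 9 array. It rose by 6.55 ± 0.51 (SE, n = 4 arrays a group) at day 14 against mESC (adjusted p = 1.61e-07, limma), by 3.05 at day 9 against mESC (adjusted p = 0.000151) and by 3.50 at day 14 against day 9 (adjusted p = 0.000108). Only 2 of the 4 mESC arrays held it well above background, so the size against mESC is loosely measured: with normexp it was 3.27 at day 14 and 0.67 at day 9, the second no longer past the fold threshold. Between the days, where every array measured it, the change was 11.3-fold, and 2.60 on the log2 scale with normexp.

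Cox6a2, the heart and skeletal muscle form of subunit 6a, read 1.89, 1.99, 1.99 and 1.97 on the mESC arrays, 1.85, 3.42, 2.91 and 2.44 at day 9 and 3.75, 4.15, 3.92 and 4.38 at day 14. The day 14 arrays stood above all others, whereas the day 9 arrays were spread widely and 1 of them, replicate 1, lay below the mESC arrays. It rose by 2.09 ± 0.27 at day 14 against mESC (adjusted p = 1.81e-05, limma) and by 1.39 against day 9 (adjusted p = 0.000944). At day 9 against mESC the difference was 0.70 (adjusted p = 0.0326), and it ran from 0.44 without day 9 replicate 2 (adjusted p = 0.0852) to 0.96 without day 9 replicate 1 (adjusted p = 0.00146). Leaving out any 1 mESC array also took its adjusted p past 0.05 (0.0545 to 0.0644).

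Cox7a1, the muscle form of subunit 7a, read 4.52, 4.51, 4.62 and 4.48 on the mESC arrays, 2.07, 3.09, 2.97 and 2.66 at day 9 and 3.06, 3.33, 3.11 and 3.62 at day 14. All mESC arrays lay above all others, and the days overlapped. It fell by 1.84 at day 9 (adjusted p = 3.82e-06, limma) and by 1.25 ± 0.20 at day 14 (adjusted p = 9.4e-05) against mESC, the second becoming −0.89 with quantile normalization, past the adjusted p but short of the fold threshold. Day 14 exceeded day 9 by 0.58 (adjusted p = 0.0236), a difference that was 0.37 without day 9 replicate 1 (adjusted p = 0.0375). It missed the adjusted p with normexp (0.44, adjusted p = 0.18), with median scaling (0.41, adjusted p = 0.0637), and without day 14 replicate 2 (adjusted p = 0.0512) or replicate 4 (adjusted p = 0.0691).

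Day 9 replicate 1 gave the lowest day 9 value of all 3 muscle isoforms. It was also the lowest day 9 array for their ubiquitous counterparts (Cox8a 5.81, Cox6a1 7.31 and Cox7a2 4.30). Its median over all subunit genes, each taken relative to its mESC mean, was −0.39, against −0.30 to −0.24 on the other day 9 arrays. Its low readings were therefore not confined to muscle genes. The same array had the lowest day 9 values of Myh6 (alpha myosin heavy chain), Tnnt2 (cardiac troponin T) and Ppargc1a, the coactivator of mitochondrial genes. Cox8b and Cox7a1 are also genes of brown fat. Of the 3 brown fat markers tested, the summed signal lay between 9.98 and 11.4 times the percentile in mESC, between 0.341 and 0.382 times at day 9 and between 0.507 and 0.607 times at day 14. They did not move alike: Ucp1, the defining one, was well above background on 1 day 9 array and on no day 14 array, Cidea was at −5.11 and Dio2 at 2.57 at day 14 against mESC, and Cidea was 2.31 higher at day 14 than at day 9. Their part in the values of Cox8b and Cox7a1 was not tested. The 8 skeletal muscle markers summed to between 1.22 and 1.27 in mESC, between 12 and 21 at day 9 and between 16.3 and 19.3 at day 14, and their part in the muscle isoform values was not tested.

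**Figure D2:**
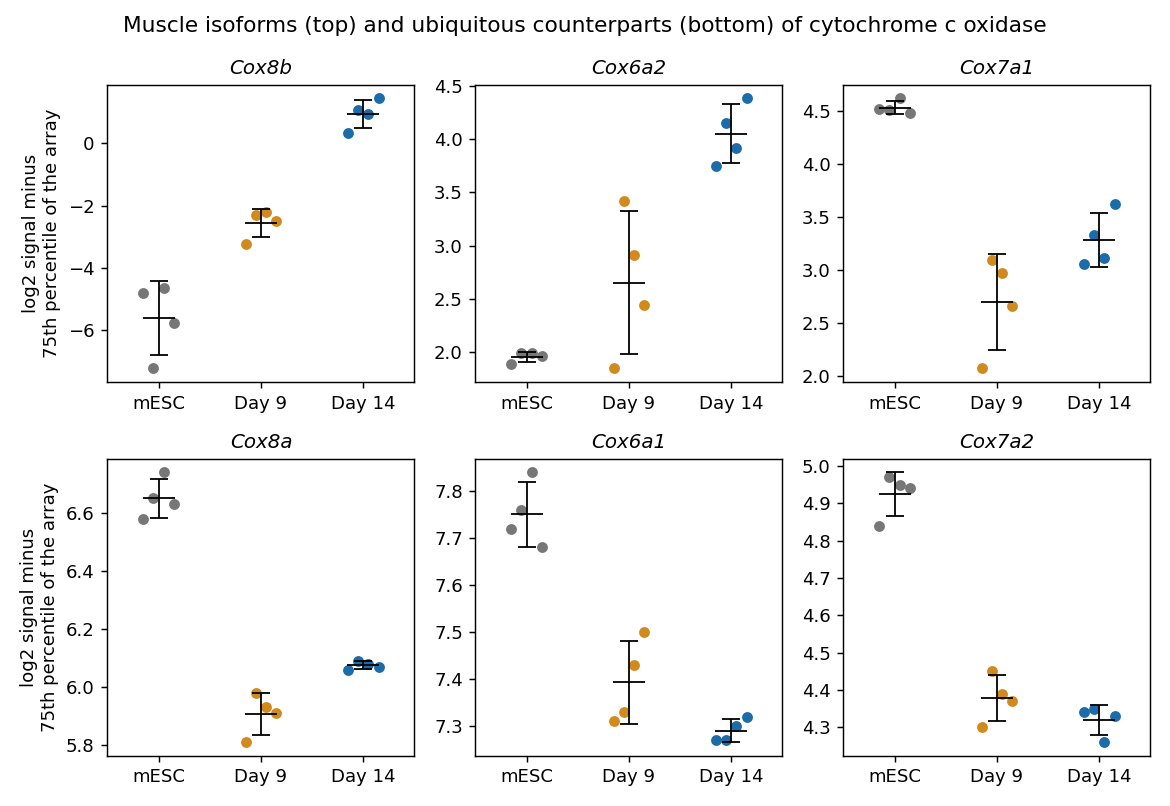
Log2 signal minus the array's 75th percentile for the muscle isoforms Cox8b, Cox6a2 and Cox7a1 (top) and their ubiquitous counterparts (bottom), with 1 point per array and bars for mean ± SD (n = 4). Cox8b and Cox6a2 are highest at day 14 and Cox7a1 is highest in mESC, while the counterparts are highest in mESC over a narrower range; with quantile normalization Cox6a1 is 0.14 above mESC at day 14. The vertical axes differ between panels.

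The ubiquitous counterparts changed by less than 1 on the log2 scale in every comparison. Cox8a read 6.58, 6.65, 6.74 and 6.63 on the mESC arrays, 5.81, 5.98, 5.93 and 5.91 at day 9 and 6.06, 6.09, 6.08 and 6.07 at day 14. Cox6a1 read 7.72, 7.76, 7.84 and 7.68 in mESC, 7.31, 7.33, 7.43 and 7.50 at day 9 and 7.27, 7.27, 7.30 and 7.32 at day 14. Cox7a2 read 4.84, 4.97, 4.95 and 4.94 in mESC, 4.30, 4.45, 4.39 and 4.37 at day 9 and 4.34, 4.35, 4.26 and 4.33 at day 14. All 3 were lower at day 14 than in mESC with no overlap, with changes of −0.58, −0.46 and −0.60 (adjusted p = 3.02e-07, 5.22e-06 and 1.27e-07, limma); with quantile normalization Cox8a stood at −0.01, Cox6a1 at 0.14 and Cox7a2 at −0.16.

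Subtracting the counterpart from the tissue isoform on the same array removes the scaling of the array. The difference of Cox8b and Cox8a was 7.13 larger at day 14 than in mESC and 3.33 larger than at day 9, and that of Cox6a2 and Cox6a1 was 2.55 and 1.50 larger. The difference of Cox7a1 and Cox7a2 was 0.65 smaller at day 14 than in mESC (−1.04 ± 0.24 at day 14 and −0.39 ± 0.07 in mESC, SD, n = 4 each) and 0.64 larger than at day 9. In each of these 6 comparisons the groups did not overlap, which gives the smallest p that a two-sided exact permutation test of 4 against 4 arrays can reach (p = 0.0286, and 0.0306 after adjustment over 15 such tests of 5 pairs, of which 14 passed and 12 with normexp). These differences compare changes, since the levels of different probes cannot be set against each other.

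The windows before the start of both members of a pair are shown because the isoforms of subunit 8 parted most. The 250 bases upstream of each start, from the RefSeq promoter table of build GRCm38.p6, are at chr7:140900447-140900696 on the minus strand for Cox8b and chr19:7217617-7217866 on the minus strand for Cox8a. In capitals are the single CAGCTG of Cox8b, the E-box form that muscle regulators of the MyoD family bind, and in Cox8a an ATTGG, the reverse complement of CCAAT.
Cox8b: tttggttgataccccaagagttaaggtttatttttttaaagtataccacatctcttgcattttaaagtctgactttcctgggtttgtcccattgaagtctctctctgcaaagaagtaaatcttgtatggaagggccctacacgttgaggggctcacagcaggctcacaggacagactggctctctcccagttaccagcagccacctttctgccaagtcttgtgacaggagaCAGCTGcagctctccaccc
Cox8a: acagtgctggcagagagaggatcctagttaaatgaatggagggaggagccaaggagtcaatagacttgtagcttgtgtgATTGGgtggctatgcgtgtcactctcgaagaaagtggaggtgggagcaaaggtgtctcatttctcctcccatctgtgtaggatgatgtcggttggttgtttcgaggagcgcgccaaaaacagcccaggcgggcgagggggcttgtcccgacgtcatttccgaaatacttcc
The promoter of Cox7a1, which fell against mESC, is at chr7:30183921-30184170 on the plus strand, with AGATAA in capitals, which zinc-finger factors of the Gata family bind, at both of its places on either strand. That of the ubiquitous Cox6a1 is at chr5:115348959-115349208 on the minus strand, with both matches to the motif of nuclear respiratory factor 1 (NRF1) in capitals.
Cox7a1: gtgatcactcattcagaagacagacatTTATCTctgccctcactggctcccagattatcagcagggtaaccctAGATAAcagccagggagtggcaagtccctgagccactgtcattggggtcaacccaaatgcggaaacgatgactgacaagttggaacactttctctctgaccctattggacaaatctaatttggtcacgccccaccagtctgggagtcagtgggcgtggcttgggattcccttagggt
Cox6a1: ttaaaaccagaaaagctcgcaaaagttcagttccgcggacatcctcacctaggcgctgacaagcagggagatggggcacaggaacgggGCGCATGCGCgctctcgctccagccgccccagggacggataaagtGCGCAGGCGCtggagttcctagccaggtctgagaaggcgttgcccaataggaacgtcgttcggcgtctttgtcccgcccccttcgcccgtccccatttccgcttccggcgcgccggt

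Across the set, 67 of the 80 genes had an entry in that table, which holds 27025 windows of 250 bases before and 50 after a start. Matches on either strand to the NRF1 motif were found in 16 of the 67 (23.9%, against 4.78% of all windows), to CCGGAAG (ETS factors such as the GABP complex) in 16 (23.9% against 9.12%) and to AAGATGGC (YY1) in 9 (13.4% against 2.88%). TCAAGGTCA, bound by the oestrogen-related receptors, was in 2 (2.99% against 0.407%), and AGGTCA, which it contains, in 16 (23.9% against 16%). GGGCGG was in 27 (40.3% against 35.9%) and CCAAT in 30 (44.8% against 37.9%). Of motifs linked to muscle and heart, CAGCTG was in 6 (8.96% against 16.1%), the wider E-box CANNTG that contains it in 46 (68.7% against 72.1%), AGATAA in 6 (8.96% against 11.4%) and the MEF2 motif in 0 (against 3.26%). Among genes with an entry, Cox8b was the only tissue isoform of the 6 with CAGCTG and Cox7a1 the only one of the 6 with AGATAA. Cox6a2 and Cox8c were in the count of no motif, so they may lack an entry rather than a match. A match describes letters in a window and is no evidence of binding.

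The 3 testis isoforms were highest in mESC. Cox6b2, the testis form of subunit 6b, read 2.50, 2.48, 2.61 and 2.42 on the mESC arrays, 0.74, 0.73, 0.80 and 0.78 at day 9 and 1.55, 1.37, 1.54 and 1.53 at day 14. The 3 groups did not overlap, with day 9 lowest. It fell by 1.74 at day 9 against mESC (adjusted p = 6.36e-11, limma) and by 1.00 ± 0.05 at day 14 (adjusted p = 6.06e-09), the second just at the fold threshold, which it missed with quantile normalization (−0.73), without mESC replicate 3 and without day 14 replicate 2. Day 14 stood 0.73 above day 9 (adjusted p = 5.79e-07).

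Cox7b2 read −3.23 to −2.99 on the mESC arrays, −5.16, −4.83, −4.84 and −4.90 at day 9 and −5.00, −4.34, −5.39 and −4.91 at day 14. It fell by 1.84 at day 9 and by 1.82 at day 14 against mESC (adjusted p = 1.6e-06 and 1.59e-06, limma), and the days overlapped. With normexp the changes were −0.64 and −0.25, both short of the adjusted p. Cox8c read −4.15, −4.21, −3.99 and −4.04 in mESC, and it was not well above background on any day 9 or day 14 array (−8.10 to −7.76 at day 9 and −8.32 to −7.76 at day 14). It was at least 3.14-fold lower at day 9 and at least 3.83-fold lower at day 14 than in mESC, the bound using, per array, the lowest signal among probes well above background. The fitted changes were −3.88 and −3.95 (adjusted p = 4.99e-11 and 3.33e-11, limma). They rest on readings below background, and the probe passed the filter through mESC alone, so these p-values do not bear on the bounds. With normexp, whose offset makes the changes of dim genes smaller, Cox8c was at −0.63 and −0.21. Both were short of the adjusted p, so the bounds do not carry over to that setting. Of the ubiquitous partners, Cox7b stood at −0.59 and Cox6b1 at −0.16 at day 14 against mESC, the second short of the adjusted p (0.0586). On the same array the difference of Cox6b2 and Cox6b1 was 0.85 smaller at day 14 than in mESC and that of Cox7b2 and Cox7b was 1.23 smaller, both at p = 0.0286 in the exact permutation test, but with normexp the second was 0.46 larger with overlapping arrays.

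Among the 9 ubiquitous subunits of complex IV, 1 fell at both days against mESC and none rose. At the adjusted p alone 8 of the 9 were lower at day 14 and 9 of 9 at day 9, beside 48.3% and 47.1% of all genes. The medians of the 9 were −0.59 and −0.55, and with quantile normalization 4 were lower and 2 higher at day 14. The one that fell was Cox5a, a subunit on the matrix side of the enzyme. It read 7.03, 7.09, 7.13 and 7.03 on the mESC arrays, 5.64, 5.94, 5.94 and 5.99 at day 9 and 5.53, 5.58, 5.65 and 5.74 at day 14. No array of either day reached the mESC range. It fell by 1.44 ± 0.08 at day 14 (2.72-fold, adjusted p = 5.05e-09, limma) and by 1.19 at day 9 (adjusted p = 3.41e-08), or by 0.84 and 0.74 with quantile normalization. Cox5b, Cox6c and Cox7c, named after their values were seen, stood at −0.28, −0.60 and −0.83 at day 14.

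Complex III held the other members that fell. Uqcrc1, a core protein on the matrix side, read 5.85, 6.01, 6.01 and 5.86 in mESC, 4.74, 4.77, 4.76 and 4.73 at day 9 and 4.69, 4.72, 4.59 and 4.76 at day 14. It fell by 1.24 ± 0.05 at day 14 and by 1.18 at day 9 against mESC (adjusted p = 6.14e-10 and 1.19e-09, limma), and a second probe gave −1.31 at day 14. Uqcrb, a small subunit near the quinone site, read 4.84, 4.84, 4.80 and 4.63 in mESC, 3.55, 3.69, 3.59 and 3.59 at day 9 and 3.62, 3.69, 3.77 and 3.74 at day 14. It fell by 1.07 at day 14 and by 1.17 at day 9 (adjusted p = 6.57e-09 and 3.63e-09). With quantile normalization Uqcrc1 and Uqcrb were at −0.77 and −0.68 at day 14 and at −0.84 and −0.89 at day 9, short of the fold threshold.

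Uqcr10, a small membrane subunit, read 6.38, 6.44, 6.47 and 6.40 in mESC, 5.25, 5.43, 5.50 and 5.43 at day 9 and 5.47, 5.50, 5.46 and 5.44 at day 14. It fell by 1.02 at day 9 (adjusted p = 4.59e-09, limma), or by 0.97 without day 9 replicate 1, and stood at −0.96 at day 14 (adjusted p = 6.82e-09), so the calls at the 2 days lie on either side of the threshold for nearly the same value. With normexp they changed sides (−0.99 at day 9 and −1.06 at day 14), and with quantile normalization both were short of it (−0.61 and −0.42). Uqcrh, the hinge protein that helps cytochrome c dock, was the member of complex III with the highest change: 5.94, 6.06, 6.04 and 6.02 in mESC, 6.27, 6.54, 6.50 and 6.49 at day 9 and 6.50, 6.61, 6.48 and 6.15 at day 14. Both days lay above mESC, by 0.44 at day 9 and 0.42 at day 14 (adjusted p = 0.00117 and 0.00148), and its second probe gave 0.74 at day 14. The day 14 value was 0.94 with quantile normalization and 0.19 with median scaling, the second short of the adjusted p (0.101). Of the 8 members 6 were lower and 1 higher at the adjusted p alone at each day against mESC, and none passed it between the days. Against mESC the same rule took 48.3% of all genes downward and 36.8% upward at day 14, and 47.1% and 36.3% at day 9.

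**Figure D3:**
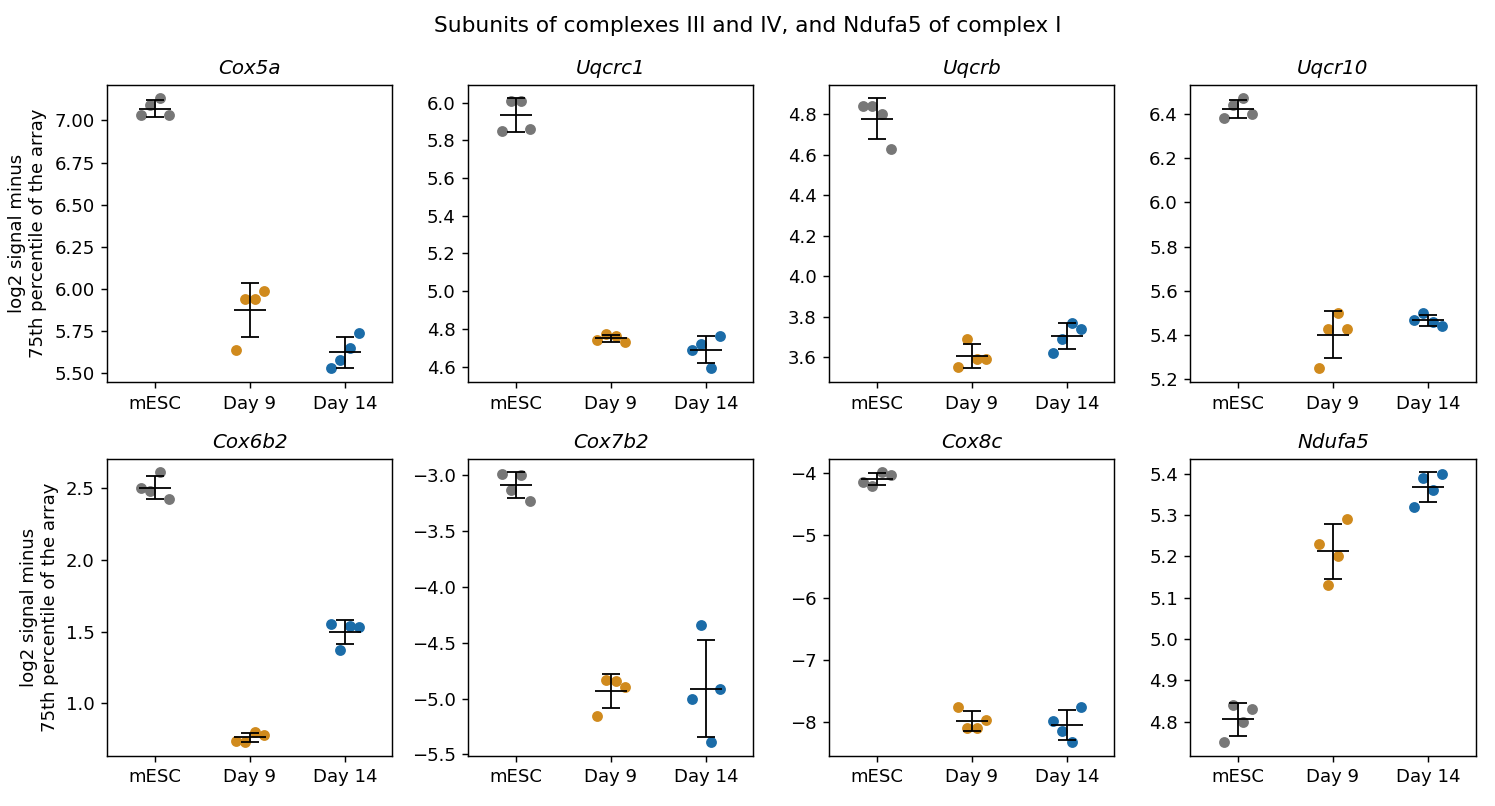
Log2 signal minus the array's 75th percentile of subunits of complexes III and IV and of Ndufa5 of complex I, with 1 point per array and bars for mean ± SD (n = 4). All but Ndufa5 are highest on the mESC arrays, and Cox8c is below background on all day 9 and day 14 arrays. The vertical axes differ between panels.

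No subunit of complex I rose or fell in any comparison by limma's test at the fold threshold. At the adjusted p alone 3 of 36 were higher and 23 lower at day 14 against mESC (median −0.25), and 2 were higher and 23 lower at day 9 (median −0.30). The same rule took 36.8% of all genes upward and 48.3% downward at day 14, and 36.3% and 47.1% at day 9. With quantile normalization the day 14 counts of complex I were 21 higher and 9 lower. Between the days 9 of the 36 were higher and 7 lower at the adjusted p, beside 25.4% and 37.9% of all genes, and 9 and 8 at an unadjusted p under 0.05. The 7 core subunits, among them those that carry the flavin and iron-sulfur clusters, had a median of −0.45 at day 14 with 5 lower and none higher, and the 29 accessory subunits a median of −0.25 with 18 lower and 3 higher. Ndufa5, an accessory subunit of the arm in the matrix, had the highest change. It read 4.75, 4.84, 4.80 and 4.83 in mESC, 5.13 to 5.29 at day 9 and 5.32 to 5.40 at day 14, with no overlap among the 3 groups, and exceeded mESC by 0.56 at day 14 (adjusted p = 1.9e-07) and 0.41 at day 9 (adjusted p = 4.03e-06). The day 14 value was 0.99 with quantile normalization and 0.33 with median scaling. Ndufa7, another accessory subunit, was at the other end with 6.22, 6.25, 6.50 and 6.19 in mESC, 5.31 to 5.50 at day 9 and 5.25 to 5.34 at day 14, a change of −0.99 at day 14 (adjusted p = 7.9e-08) that was −0.49 with quantile normalization and −1.15 with normexp.

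Direction within complex I depended on the scaling, since 3 higher and 23 lower at day 14 became 21 and 9 with quantile normalization. Some members also differed between days or probes. Ndufb5, named here after its values were seen, was above mESC at day 9 (0.25, adjusted p = 0.000194) and below it at day 14 (−0.25, adjusted p = 0.000178), with readings of 2.01, 2.06, 2.09 and 2.01 in mESC, 2.21, 2.28, 2.31 and 2.37 at day 9 and 1.76, 1.77, 1.82 and 1.80 at day 14. Its 3 groups did not overlap. Its values under other scalings are not given here. The median of complex I at day 14 moved from −0.25 to 0.20 with quantile normalization and to −0.48 with median scaling, so the sign of so small a change is uncertain. Ndufv3, also picked after its values were seen, has 3 probes that disagreed at day 9 against mESC, with −0.34, 0.59 and 0.38. Ndufa4, filed under complex I by its symbol and known as a subunit of complex IV, stood at −0.01 at day 14 and −0.10 at day 9 against mESC, and its arrays overlapped. At day 14 it was at 0.47 with quantile normalization (adjusted p = 5.2e-06) and −0.24 with median scaling (adjusted p = 0.00555).

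Complex II, which also serves the tricarboxylic acid cycle, had no gene past the fold threshold by limma's test, and 2 of its 4 were lower at the adjusted p alone at day 14 against mESC, as at an unadjusted p under 0.05. That count is near the 48.3% of all genes that were lower at the adjusted p. Sdha, the flavoprotein, read 2.19, 2.16, 2.22 and 2.21 in mESC, 1.79, 1.86, 1.83 and 1.64 at day 9 and 1.59, 1.56, 1.51 and 1.49 at day 14, a change of −0.66 ± 0.05 at day 14 (adjusted p = 1.8e-07, limma) that was −0.40 with quantile normalization. On this probe the 3 groups did not overlap. A second probe gave −0.95 at day 14 and −0.84 at day 9 against mESC, where the first gave −0.41 at day 9. Between the days the first gave −0.24 and the second −0.11 (adjusted p = 0.104, limma over all probes). Sdhb, the iron-sulfur subunit, named with Sdhd after its values were seen, was at −0.35 at day 14 against mESC (adjusted p = 0.000569). The membrane anchor subunits Sdhc and Sdhd were at 0.00 ± 0.07 and −0.08 ± 0.04 at day 14, short of the adjusted p and overlapping with mESC. Sdhc passed it in opposite directions under other scalings, at 0.34 with quantile normalization (adjusted p = 0.00107) and −0.23 with median scaling (adjusted p = 0.00885). Whether the anchor subunits differ from Sdha and Sdhb was not tested.

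In complex V no gene rose or fell by limma's test at the fold threshold, and at the adjusted p alone 2 of 17 were higher and 11 lower at day 14 against mESC (1 and 8 at day 9), or 11 higher and 2 lower at day 14 with quantile normalization. Of all genes 36.8% were higher and 48.3% lower at day 14, and 36.3% and 47.1% at day 9. The 8 lower at day 9 are near that last share. Atp5a1, the alpha subunit of the catalytic head, read 6.83, 6.98, 7.06 and 6.88 in mESC, 6.06 to 6.12 at day 9 and 6.08 to 6.12 at day 14, a change of −0.83 at day 14 (adjusted p = 1.58e-08) for which a second probe gave −0.14. It was at −0.23 with quantile normalization and at −1.07, past the fold threshold, with median scaling. Atp5b, the beta subunit, was at −0.66 on the probe that stands for the gene, while its 2 other probes gave −1.30 and −1.41, which would pass the fold threshold; it was picked after its values were seen. Atp5l, subunit g of the membrane part, had the highest change with 4.39, 4.33, 4.48 and 4.31 in mESC, 4.44, 4.42, 4.52 and 4.59 at day 9 and 4.80, 4.79, 4.80 and 4.83 at day 14. Day 14 stood apart from both other groups, 0.43 above mESC (adjusted p = 8.66e-06) and 0.31 above day 9 (adjusted p = 0.000276). These sizes depended on the scaling: against mESC it stood at 0.82 with quantile normalization, 0.20 with median scaling and 0.31 with normexp (adjusted p = 0.0793), and against day 9 at 0.14 with median scaling and 0.18 with normexp (adjusted p = 0.382).

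The 3 genes of the c-ring, the rotor of complex V, encode the same mature protein. Atp5g1 read 5.01, 5.20, 5.18 and 5.17 in mESC, 4.31, 4.38, 4.40 and 4.42 at day 9 and 4.58, 4.57, 4.53 and 4.65 at day 14. It was lowest at day 9, at −0.77 against mESC, and 0.21 higher at day 14 than at day 9 (adjusted p = 0.00458, limma). Atp5g2 and Atp5g3 were instead lowest at day 14, at −0.55 and −0.31 against mESC, and −0.24 and −0.22 against day 9 (adjusted p = 0.000601 and 0.00148). With quantile normalization Atp5g2 was at 0.02 and Atp5g3 at 0.27 at day 14 against mESC. Between the days the difference of Atp5g1 was 0.03 with median scaling (adjusted p = 0.584) and 0.09 with normexp (adjusted p = 0.613). Atp5g2 and Atp5g3 were at −0.42 and −0.37 with normexp, also short of the adjusted p. Whether the 3 genes differ from each other was not tested.

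**Figure D4:**
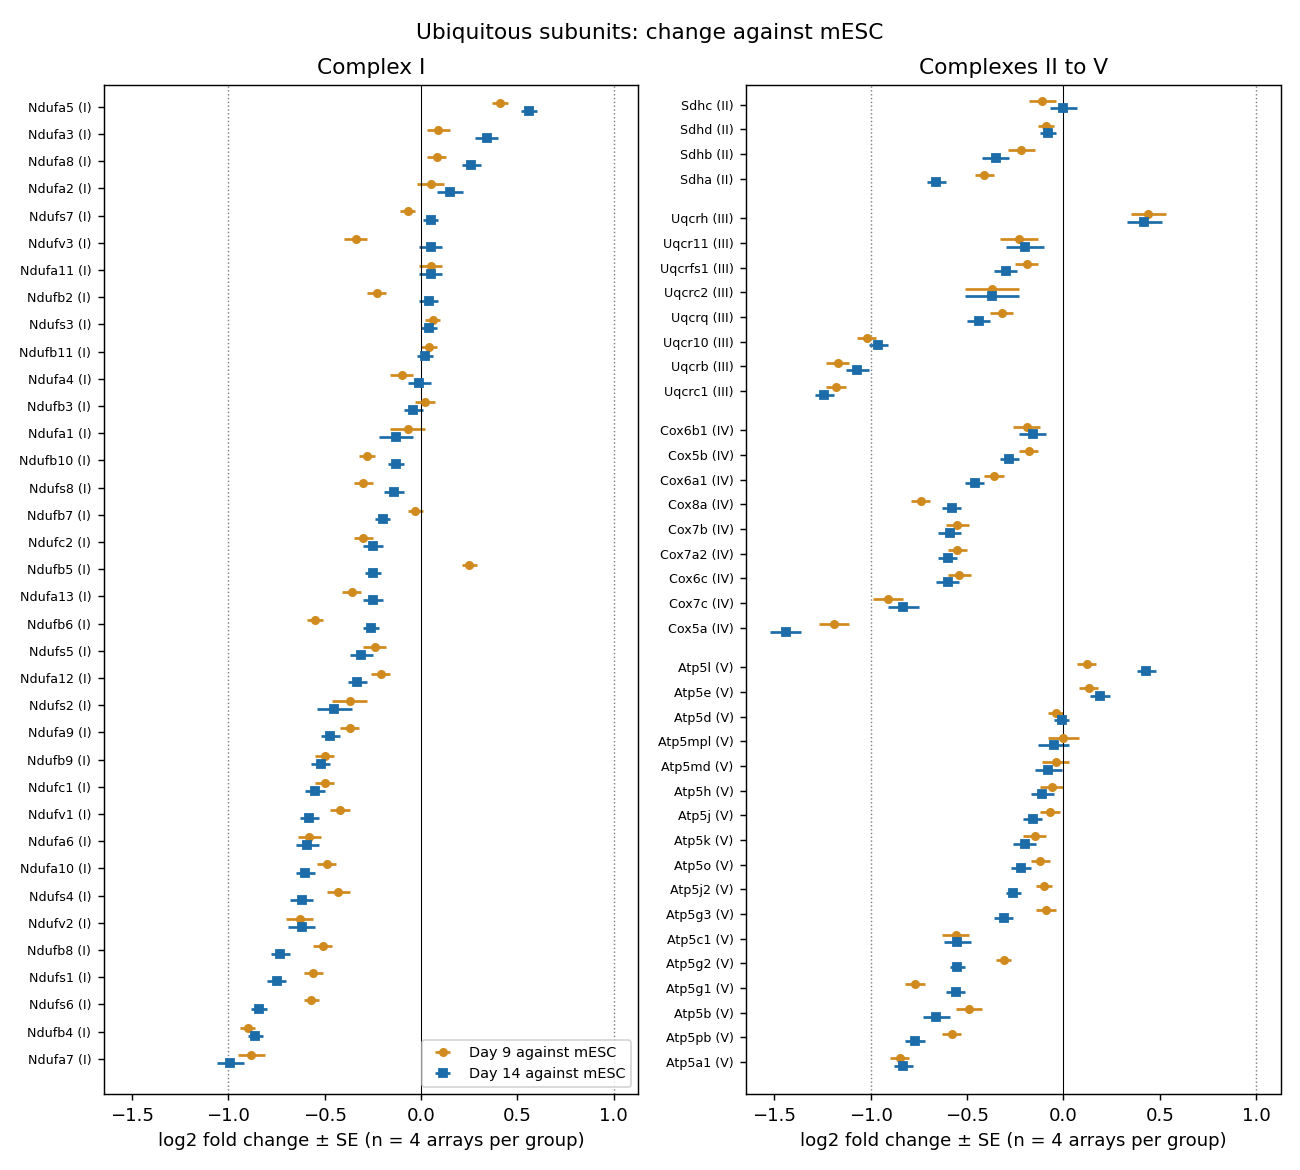
Log2 fold change ± SE of the 74 ubiquitous subunits at day 9 and day 14 against mESC (n = 4 arrays a group), sorted within each complex by the day 14 value; dotted lines mark a change of 1 in either direction. Most points lie between −1 and 0 in the 75th percentile scaling used here, Cox5a, Uqcrc1 and Uqcrb lie beyond −1 at both days, and with quantile normalization the median of the 74 is above 0.

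Genes that work with the subunits were taken from lists of the pathway. Of 14 tested chain and carrier genes outside the name rule, 11 were lower at day 14 against mESC at the adjusted p. Another 2 were higher, as at an unadjusted p under 0.05. The adjusted p took 48.3% of all genes downward and 36.8% upward. At the fold threshold none rose and 4 fell, beside 22.8% and 24.1% of all genes. They were Cyct, the testis cytochrome c (−6.07 ± 0.17, adjusted p = 1.93e-11, limma), Slc25a31, the testis carrier of ADP and ATP (at least 6.21-fold lower, below background at both days), Cyc1, the cytochrome of complex III (−1.36), and Slc25a5, an ADP and ATP carrier of many tissues (−1.14). With normexp Slc25a31 was at −0.26 and short of the adjusted p (0.647), and Cyct at −3.26. With quantile normalization Cyc1 and Slc25a5 were at −0.87 and −0.56. Slc25a4, the carrier of heart and muscle, picked after its values were seen, was 0.35 above mESC at day 14 and 0.57 at day 9. Of 41 assembly factors tested 1 rose and 11 fell at day 14, with a median of −0.48, and the count that fell is near the 24.1% of all genes that did. At the adjusted p alone 6 of them were higher and 30 lower, beside 36.8% and 48.3% of all genes. Ndufaf6 and Nubpl, which serve complex I, fell by 2.10 and 1.71, Cox17, a copper carrier for complex IV, fell by 1.56, and Cox20, picked after its values were seen, rose by 1.22. Sco1, another copper protein, fell by 1.54 on the probe that stands for it, but the mean of its probes gave −0.36.

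Of 18 genes that copy or transcribe mitochondrial DNA or regulate mitochondrial genes, 4 rose and 5 fell at day 14 against mESC. These counts are near the shares of all genes tested (22.8% rose and 24.1% fell). The median of the 18 was −0.61, beside −0.19 for all genes. Ppargc1a rose by 2.56 ± 0.23 (adjusted p = 5.78e-07, limma) and by 2.19 at day 9, Ppara, a receptor that drives fatty acid oxidation genes, rose by 1.87 (0.80 with normexp, short of the fold threshold), and Perm1, named for the count, was at least 1.25-fold higher than in mESC, where it was below background. Esrrg, the oestrogen-related receptor gamma, rose by 4.57 at day 14 and 6.01 at day 9 on one probe, or by 1.07 and 1.63 with normexp, while the probe above background on all arrays gave −0.11 and −0.18. Those that fell were Pprc1, a relative of Ppargc1a (−1.78), and, named for the count, Polrmt, Polg, Nrf1 and Gabpa. Nrf1 was at −1.27 and Gabpa, a subunit of the GABP complex, at −1.25. In the tricarboxylic acid cycle 1 of 12 genes fell at day 14 and none rose, beside 24.1% and 22.8% of all genes. The gene that fell was Idh3a, a subunit of isocitrate dehydrogenase, by 1.50, and it stood at −1.17 with quantile normalization. At the adjusted p alone 11 were lower, beside 48.3% of all genes. That count is not given here for other scalings. With quantile normalization the median of the 80 subunit genes at day 14 changed sign, from −0.31 to 0.12.

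**Figure D5:**
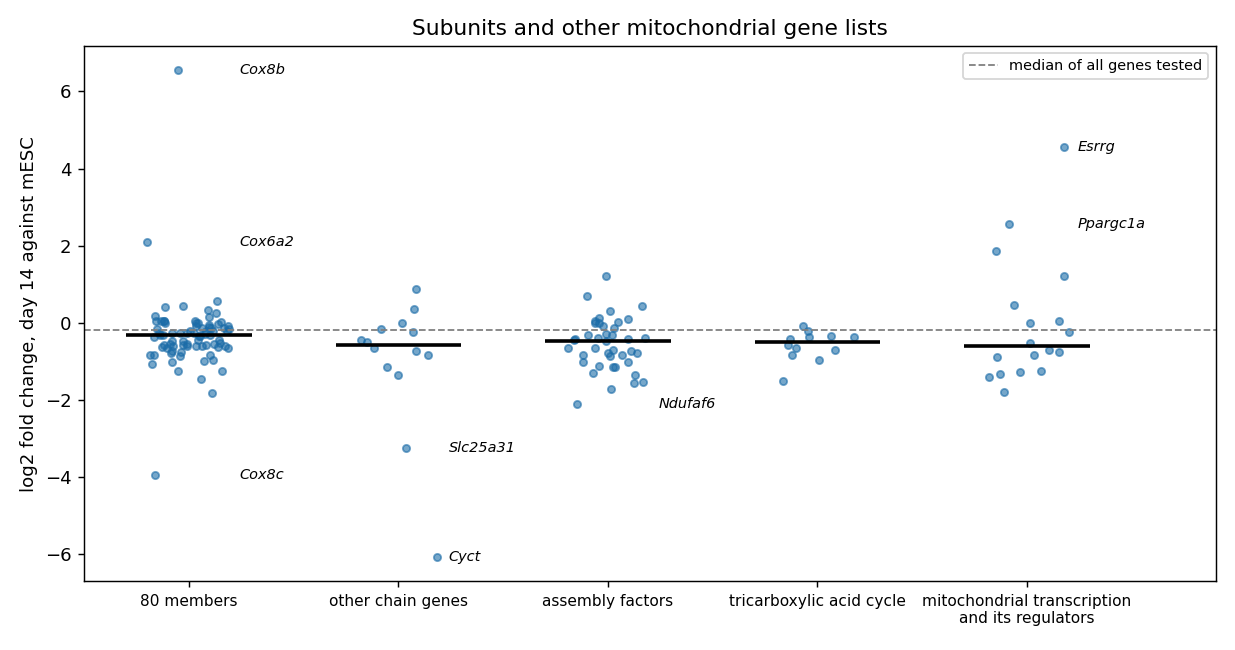
Log2 fold change at day 14 against mESC of the 80 subunit genes and of 4 further lists, 1 point per gene, with bars for the median of each list and a dashed line for the median of all genes tested (−0.19). The median of the 80 is −0.31 here and 0.12 with quantile normalization. Names are given beyond a change of 2 in either direction; Cox8c and Slc25a31 are fitted values of genes below background at day 14, and Esrrg is the value of one of its 2 probes.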

How the data were processed

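Total RNA of 12 samples was read on 1-colour Agilent arrays of 45018 spots. The deposited scanner files hold the intensity of each spot on a linear scale as processed by Agilent Feature Extraction 12, per the submitters' processing notes and the file headers, with flags for spots well above background. The processed signal of the 43379 non-control spots was divided by the array's 75th percentile and taken to log2, and spots of a probe were averaged (41174 probes). The deposited series table held the same values, also on a linear scale, so a fit to it repeated the main one. Genes were named by matching each probe's accession to RefSeq; 28223 probes were named and 12951 were not. A probe was tested if well above background on at least 3 of 4 arrays of a group, and the probe with the highest mean stood for its gene.

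limma 3.58.1 in R 4.3.3 was fitted to all 12 arrays and 20875 genes, with Benjamini-Hochberg adjustment over all of them, and was tested on simulated data. Isoform pairs were compared with two-sided exact permutation tests (SciPy 1.17.1). The members and gene lists were chosen with earlier results of these data known. Named genes were the tissue isoforms with their counterparts, the c-ring genes, Ndufa4, all members past both thresholds, the highest and lowest change per complex at day 14, and up to 4 called genes of each other list. Alternatives were other background corrections, scalings, filters and probe rules, a replicate block, and leaving out each array. Scaling to the percentile over probes and to the members' own median was added after seeing the data. The number of arrays limits the precision. Probe sequences were not used, so cross-hybridisation between related genes was not checked.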

Additional observations from a re-analysis of the deposited data

Results flagged for a closer look

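Each subunit gene was looked at in each group for an array that stood far from the other 3 (240 looks, of which chance gives about 1 in 20), and 12 were found. Day 9 replicate 1 held 5 of them, all low: Cox5a read 5.64 there (5.94 to 5.99 on the other day 9 arrays), Atp5c1 6.37 (6.52 to 6.54), Cox7b 3.83 (4.04 to 4.07), Ndufa6 3.86 (4.05 to 4.07) and Ndufb3 4.06 (4.19 to 4.20). At day 14, Cox6b2 read 1.37 on replicate 2 (1.53 to 1.55 on the others) and Ndufs1 3.97 on replicate 4 (3.83 to 3.84). Among mESC arrays, Uqcrc2 read 4.73 on replicate 4 (5.42 to 5.50), the widest of these gaps. Atp5g3 read 6.52 on the same array (6.61 to 6.63), Atp5g1 5.01 on replicate 1 (5.17 to 5.20), Atp5h 6.15 on replicate 2 (6.02 to 6.04) and Atp5g2 6.52 on replicate 3 (6.43 to 6.44).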

How the results depend on the processing

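None of the 20 calls of subunit genes over the 3 comparisons was lost with median scaling, no filter on dim probes or the mean over probes. None was lost either with only the 8 arrays compared or with an intensity trend. The fit to the deposited series table repeated the main one, so it could lose no call. Quantile normalization lost 9, the members' own median 8, normexp 6 and the 75th percentile over probes 3. Of the other genes named, Slc25a31, Ppara and Sco1 lost their day 14 calls against mESC with normexp, Cyc1 and Slc25a5 theirs with quantile normalization, Slc25a5 also with the members' own median, and Sco1 also with the mean over probes. Leaving out 1 array lost Cox6b2 at day 14 (without mESC replicate 3 or day 14 replicate 2) and Uqcr10 at day 9 (without day 9 replicate 1). At day 14 against mESC the 9 members called became 4 with quantile normalization, 16 with median scaling and 5 with the members' own median; the 54 lower at the adjusted p became 23 and 35 with quantile normalization and own median; and the 8 higher became 4 with normexp or median scaling, 40 with quantile normalization and 26 with own median. At day 9 against mESC the 9 called became 5 with normexp or quantile normalization, the 52 lower became 30 with normexp and 29 with quantile normalization or own median, and the 6 higher became 3 with normexp, 34 with quantile normalization, 11 with the percentile over probes and 37 with own median. Between the days the 2 called became 1 on probes above background on all arrays, where Cox8b was not tested. The 14 lower became 2 with normexp, 5 with quantile normalization, 49 with median scaling and 38 with own median, and the 16 higher became 3, 32, 6 and 9 in the same settings. Without each array in turn, 8 to 10 members were called at day 14 against mESC (52 to 56 lower, 8 to 9 higher), 8 to 9 at day 9 against mESC (48 to 53 lower, 4 to 8 higher) and 2 between the days (13 to 18 lower, 14 to 18 higher). The members' median turned to 0.12 at day 14 and 0.05 at day 9 against mESC with quantile normalization. Esrrg turned to −0.11 at day 14 and −0.18 at day 9 against mESC and to 0.07 between the days on the probe above background on all arrays, and the difference of Cox7b2 and Cox7b turned to 0.46 at day 14 against mESC with normexp; the cause was not tested. Over all genes 9783 calls at day 14 against mESC became 5849 with normexp and 6430 when every array had to be above background, where fewer genes were tested. The 8565 calls at day 9 became 4753 and 5483, and the 2880 between the days became 1233 and 1305. The deviations of same-numbered replicates had correlations of −0.075 to 0.184, beside −0.205 to 0.149 for differently numbered ones. Such correlations cannot exclude that same-numbered samples share a culture or batch, and the samples were not treated as paired. With a replicate block the members called stayed at 9, 9 and 2, with 55, 51 and 15 lower and 8, 6 and 16 higher at the adjusted p. Slide could not be fitted as a block, since each slide holds 1 group. Dim signal limits Cox8b in mESC, Cox7b2, and Cox8c after mESC.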
